A study of Oryctolagus cuniculus with 16 samples.

Results

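Complement components and receptors were examined in the femoral head of a rabbit model of Perthes disease. The members were 9 genes chosen by symbol, namely *C1QA*, *C1QB*, *C1QC*, *C1R*, *C1S*, *C3*, *CFB*, *C3AR1* and *C5AR1*. The gene table lists 20255 genes and holds a row for 7 of the 9 symbols, and it has no row named *C1QA* or *C1QB*. Total RNA depleted of ribosomal RNA was sequenced from femoral heads of 5 Perthes rabbits and 3 control rabbits. The Perthes group comprised wild-type rabbits operated on at 8 weeks of age. Blood flow to the growing head of the femur was interrupted by tying off the neck of the bone and dividing the ligament that joins the head to the hip socket. The control group carries the genotype label WT. The rabbits were thus a surgical model, although the labels enter the disease as a genotype. Sham surgery, the age of the controls and the interval from surgery to sampling are not given in the sources used here. A small RNA data set on the same groups measures no complement gene and was not used here.

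Complement is a cascade of blood and tissue proteins that marks targets for uptake and calls in leukocytes. In the classical pathway, C1q, built from A, B and C chains, recognises antibody, dying cells and debris, and the proteases C1r and C1s bound to it then cleave C4 and C2. All routes meet at C3, whose fragment C3b coats targets while C3a is released as a chemical signal. Factor B joins C3b to form the convertase of the alternative pathway, which amplifies the reaction. C3a and C5a act through the receptors encoded by *C3AR1* and *C5AR1* on myeloid cells. Tissue C1q is made largely by macrophages, C1r and C1s also by fibroblasts, and most circulating complement by the liver.

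The identity of the only C1q row needs care. The table names gene 100347327 *C1QC* and describes it as the C chain. In the RefSeq gene table of a later rabbit assembly, mOryCun1.1, the same gene ID belongs to *C1QA*, and *C1QB*, *C1QC* and *C1QA* follow each other along the chromosome. That RefSeq table holds the gene IDs of 37 of the 40 complement rows used here, and this row is the 1 whose symbol differs. The values below are therefore called those of the C1q row, and which chain was counted was not resolved. In the same RefSeq table *C1R* lies between *C1RL* and *C1S*, and *C5AR1* lies beside *C5AR2*.

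Library totals ranged from 26757094 to 29461494 counts. Values are given as CPM, counts per 1000000 counts of the TMM-scaled library total, and groups were compared by edgeR's quasi-likelihood test with adjustment over 15305 genes, a gene being called at an adjusted p below 0.05. In a principal component analysis, the controls lay apart from every Perthes rabbit on the first component (56.1% of the variance), and Perthes rabbit 4 lay apart from the other 7 rabbits on the second (13.1%). Markers of cartilage, bone and fibroblasts were present in every library. The summed chondrocyte markers reached 34366 to 139630.1 CPM in Perthes rabbits and 45860.1 to 64977 CPM in controls. The 3 liver markers that have a row stayed at or under 0.388 CPM in sum in every library.

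The C1q row fell in Perthes rabbits, and it was the 1 member called. Its level was 32.0, 61.2, 58.6, 27.8 and 21.6 CPM in Perthes rabbits 1 to 5 and 221, 163 and 129 CPM in controls 1 to 3. Every Perthes rabbit lay below every control, and the highest Perthes value was under the lowest control value by a wide margin. Perthes rabbits averaged 40.2 ± 18.3 CPM and controls 171 ± 46.7 CPM (SD, n = 5 and n = 3). Signed as Perthes minus control, the log2 fold change (log2FC) was -2.09, a fall of 4.25-fold, with a standard error (SE) of 0.36 and an adjusted p of 0.0133. In these bulk samples, fewer cells that make a transcript and less transcript per cell cannot be told apart. The counts behind these values ranged from 635 to 6186 per library, so counting error was small beside the spread between rabbits. The call was lost without control rabbit 1 (log2FC -1.85, adjusted p = 0.0521) and without control rabbit 2 (-2.12, adjusted p = 0.0519).

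**Figure D1:**
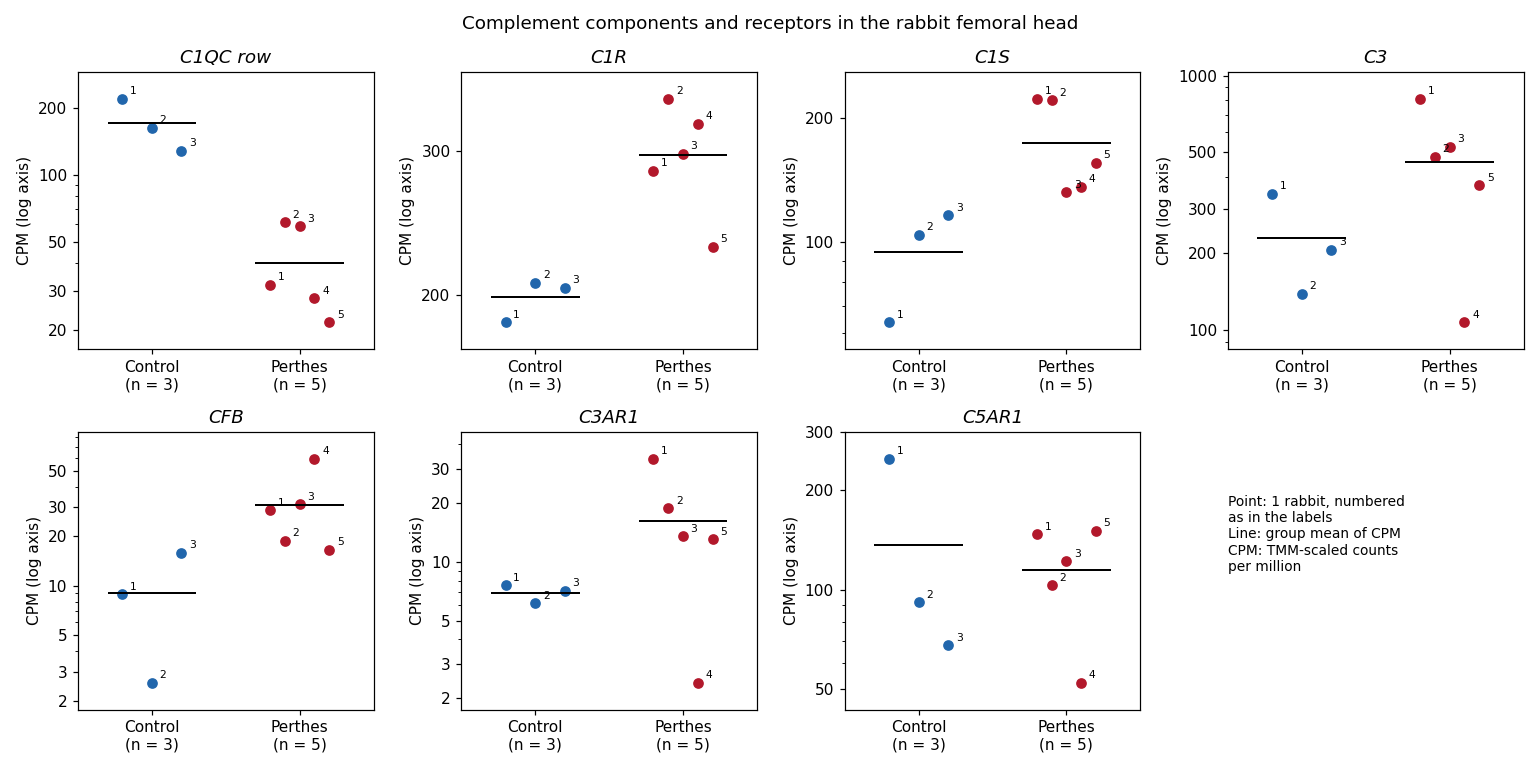
Levels of the 7 members with a row, in CPM on log axes, with 1 numbered point per rabbit and a line at each group's mean (3 controls, 5 Perthes rabbits). The C1q row is lower in all 5 Perthes rabbits than in any control, *C1R*, *C1S* and *CFB* are higher in all 5, and *C3*, *C3AR1* and *C5AR1* overlap, with Perthes rabbit 4 lowest in each.

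Among the C1 proteases, *C1R* (gene 100342793), whose product activates itself within the C1 complex, was at 284, 348, 298, 324 and 229 CPM in Perthes rabbits 1 to 5 and at 185, 207 and 204 CPM in the controls. The groups did not overlap, although Perthes rabbit 5 came close to the controls. Perthes rabbits averaged 297 ± 45.0 CPM (SD, n = 5), and the log2FC of 0.58 (SE 0.18) missed the threshold at an adjusted p of 0.0622. *C1S* (100348898), which cleaves C4 and C2, had 223, 221, 132, 136 and 156 CPM in Perthes rabbits and 63.7, 104 and 116 CPM in controls. These groups also stayed apart, with control rabbit 1 the lowest of all. The log2FC was 0.88 (SE 0.28, adjusted p = 0.0627). DESeq2, the tool named in the study's methods, gave nearly the same sizes for *C1R* and *C1S*, at 0.58 and 0.87, and called both, with adjusted p-values of 0.00889 and 0.0156. The C1q row and the genes of its proteases thus had log2FCs of opposite sign, and only the fall of the C1q row passed edgeR's test.

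*C3* (100009121), the central component, was at 811, 480.3, 524, 107 and 371 CPM in Perthes rabbits 1 to 5. The controls had 343, 139 and 207 CPM. Of the Perthes rabbits, 4 lay above every control and Perthes rabbit 4 lay below all of them. The log2FC was 1.00 (SE 0.56, adjusted p = 0.253), and without Perthes rabbit 4 it was 1.25 (adjusted p = 0.0541). The log2FC was 0.69 without Perthes rabbit 1, which held the highest level. A further row described as complement C3, LOC100346672, stayed at or under 0.851 CPM and was not tested.

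*CFB* (100355944), the protease of the alternative pathway, gave 28.7, 18.7, 31.2, 59.0 and 16.6 CPM in Perthes rabbits and 8.86, 2.57 and 15.8 CPM in controls. All 5 Perthes rabbits were above the controls, by little in rabbit 5, and rabbit 4, lowest for *C3*, was the highest for *CFB*. The controls averaged 9.09 ± 6.63 CPM (SD, n = 3), and the 3.39-fold difference, a log2FC of 1.76 (SE 0.60), missed the threshold at an adjusted p of 0.0795. Its adjusted p in DESeq2 was 0.0112, and without control rabbit 3 the log2FC was 2.43 (adjusted p = 0.0508 in edgeR).

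The anaphylatoxin receptors did not pass the test. *C3AR1* (100351157), the receptor for C3a, had 33.6, 18.8, 13.5, 2.40 and 13.0 CPM in Perthes rabbits against 7.57, 6.14 and 7.12 CPM in controls. As for *C3*, 4 Perthes rabbits were above the controls and rabbit 4, with 66 counts, was below them. The log2FC was 1.23 (SE 0.64, adjusted p = 0.218), and without Perthes rabbit 4 it was 1.51 and the gene was called (adjusted p = 0.0262). *C5AR1* (100352978), the receptor for C5a, had 147, 103, 122, 52.2 and 151 CPM in Perthes rabbits and 249, 91.6 and 67.8 CPM in controls. The controls spanned the whole Perthes range above rabbit 4, and the log2FC was -0.24 (SE 0.46, adjusted p = 0.745). It turned to 0.53 (adjusted p = 0.434) without control rabbit 1.

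**Figure D2:**
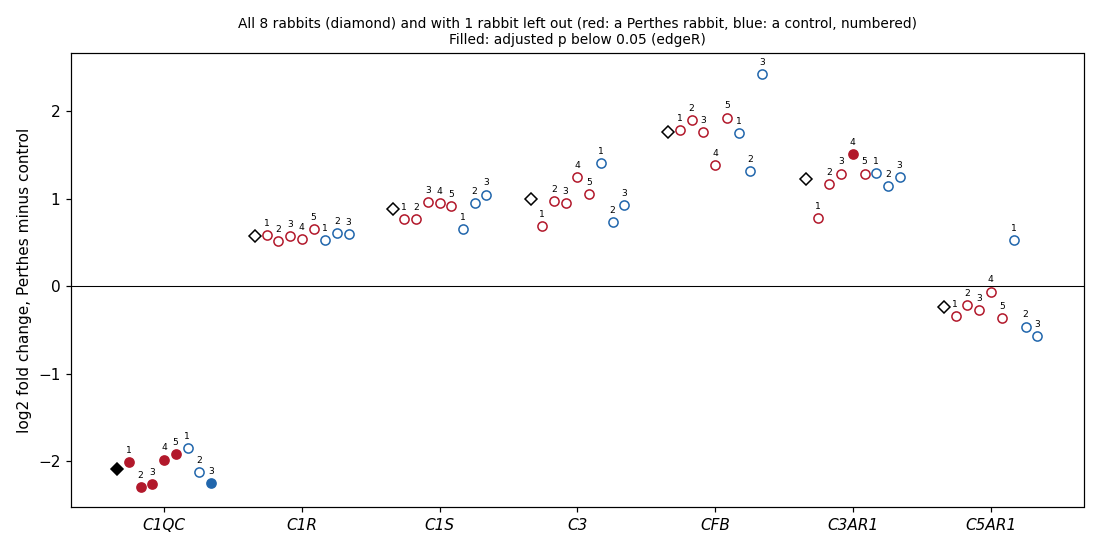
Log2 fold changes (Perthes minus control) of the 7 members with all 8 rabbits (diamonds) and with each rabbit left out in turn (circles, red for a Perthes rabbit and blue for a control, numbered). Filled symbols passed an adjusted p of 0.05 in edgeR, which the C1q row did in 6 of 8 such fits and *C3AR1* in 1, and *C5AR1* is the member whose sign changed.

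Set against the whole table, 0 of the 7 members were called higher where 6.21% of all tested genes were, and 1 of 7 was called lower where 8.87% were. At an unadjusted edgeR p below 0.05, 3 members were higher (*C1R*, *C1S* and *CFB*), where 15.3% of all genes were, and 1 was lower (16.6%). Groups that did not overlap were seen in 3 members on the higher side (11.2% of all genes) and in 1 on the lower side (13.9%). DESeq2 called 3 of the 7 higher (11.2% of all genes) and 1 lower (12.5%). The median log2FC of the members was 0.88, beside 0.02 over all genes tested.

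The level of the C1q row was next compared with macrophage markers in the same libraries, because macrophages are its known source in tissue. Of 11 macrophage markers with a row, 5 were called higher in Perthes rabbits (*CD68*, *CD14*, *CSF1R*, *MRC1* and *MERTK*), none lower, and their median log2FC was 1.07. The other 6 did not pass, among them *CD163* (log2FC 0.19, adjusted p = 0.740) and the scavenger receptor gene *MARCO*, which was at low levels of 0.218 to 1.01 CPM in Perthes rabbits and 0.529 to 4.22 CPM in controls (-2.19, adjusted p = 0.0542). None of the 11 was at 0 in all libraries. Their summed level was 810.1 to 3046 CPM in Perthes rabbits and 733 to 1241 CPM in controls. *CSF1R*, the receptor for the macrophage growth factor CSF1, averaged 348 ± 97.1 CPM in Perthes rabbits and 166 ± 10.6 CPM in controls (SD, n = 5 and n = 3), a rise that passed the test (adjusted p = 0.0326). The log2 ratio of the C1q row to *CSF1R* within a library was -3.62, -2.45, -2.76, -2.74 and -4.31 in Perthes rabbits and 0.49, -0.13 and -0.34 in controls. The mean difference was -3.19, that is 9.10-fold less C1q count per *CSF1R* count. Against *CD68*, *CD163* and *AIF1* the differences were -4.05, -2.28 and -3.34, and for each of these 4 markers the groups did not overlap. The 4 ratios share the C1q row and are not independent. For *CSF1R* and *CD68* the lack of overlap follows from the levels, as both were higher in every Perthes rabbit than in any control. These ratios took the place of planned ratios that need *C1QA* and are given without a test. The C1q row thus had the opposite sign to the 5 called macrophage markers, and the same sign as *MARCO*. The part of the cell makeup in this was not tested.

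**Figure D3:**
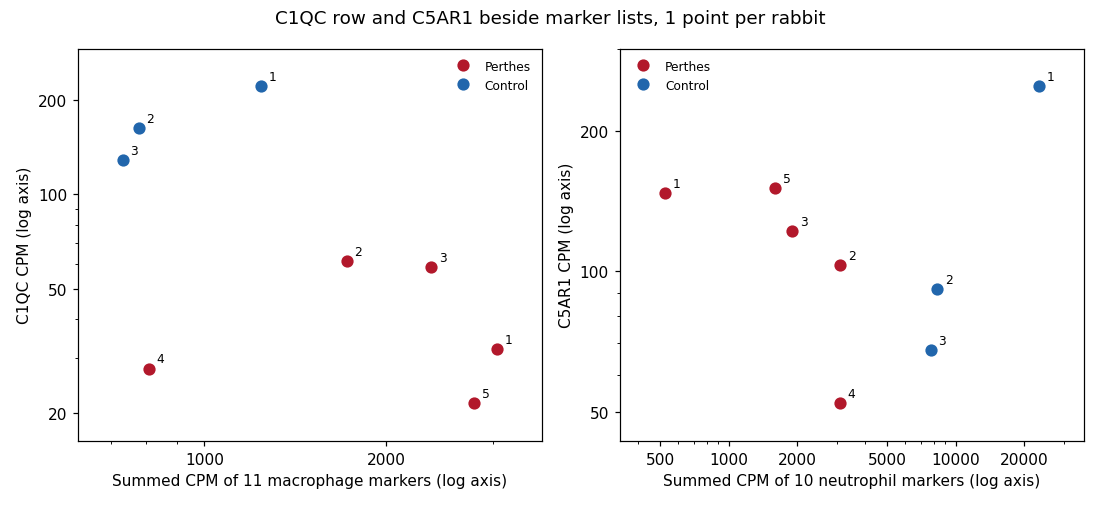
Left, the C1q row against the summed CPM of 11 macrophage markers, and right, *C5AR1* against the summed CPM of 10 neutrophil markers, with 1 numbered point per rabbit on log axes. Every Perthes rabbit holds less of the C1q row than any control, at macrophage marker sums that reach 810.1 to 3046 CPM against 733 to 1241 CPM. *C5AR1* levels overlap, although the neutrophil sums are 522 to 3097 CPM in Perthes rabbits and 7743 to 23141 CPM in controls. The neutrophil sums include *MMP9*, which was not lower and was at 483 to 1390.4 CPM in Perthes rabbits.

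*C5AR1* is carried by neutrophils as well as macrophages, and most neutrophil markers were lower in Perthes rabbits. Of 10 with a row, 5 were called lower (*S100A8*, *S100A9*, *CXCR2*, *CXCR1* and *LCN2*) and none higher, with a median log2FC of -3.49. *MMP9* was the 1 with a log2FC above 0 (0.34, adjusted p = 0.558 in edgeR). It gave 483 of the summed 522 CPM in Perthes rabbit 1 and 1267 of 3097 CPM in Perthes rabbit 2. The log2 ratio of *C5AR1* to *CSF3R*, the neutrophil receptor for G-CSF, was 5.78, 1.96, 4.07, 0.22 and 4.32 in Perthes rabbits 1 to 5 and 0.28, 0.08 and 0.43 in controls. The ratio was above all controls in 4 Perthes rabbits and within their range in rabbit 4. The mean difference of 3.01 had an exact two-sided permutation p of 0.107, and 0.643 after adjustment over the 12 ratios tested. The part of the neutrophil markers in the level of *C5AR1* was not tested.

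Among the 12 ratios tested, *SERPING1* to *C1S* was the 1 whose groups did not overlap. *SERPING1* encodes the C1 inhibitor, which blocks C1r and C1s. The log2 ratio was -1.18, -0.88, -0.49, -0.34 and -0.95 in Perthes rabbits and -0.03, -0.11 and -0.09 in controls, which lay close together. Every Perthes rabbit was below every control, a difference of -0.69, with an exact two-sided permutation p of 0.0357, the smallest that 5 rabbits against 3 allow, and 0.429 after adjustment over 12 ratios. *SERPING1* itself was at 100.3 ± 14.7 and 89.4 ± 24.4 CPM (SD, n = 5 and n = 3), a log2FC of 0.17 (SE 0.22, adjusted p = 0.630). *C1S* to *C1R* differed by 0.32 (exact permutation p = 0.357) and *C3AR1* to *C3* by -0.02 (p = 1.00 in the same exact test). Within a library the log2 ratio of *C3AR1* to *C3* lay between -5.49 and -4.49 in all 8 rabbits. Against *DCN*, which encodes the fibroblast proteoglycan decorin, the ratios of *C1R*, *C1S* and *C3* differed by -0.12, 0.20 and 0.15, with exact permutation p-values of 0.786, 0.679 and 0.857. Single rabbits moved these differences, that of *C3* to 0.91 without control rabbit 1 and to -0.27 without control rabbit 2. Against *COL1A2*, a collagen gene of fibroblasts and bone cells, *C1R* differed by 0.42 (exact permutation p = 0.179). Of 10 fibroblast markers, 3 were called higher (*COL3A1*, *THY1* and *FBN1*) and none lower. The median log2FC of the 10 was 0.98, with single values from 0.15 (*COL1A1*) to 2.40 (*DPT*). Their sums overlapped, at 112892 to 256518 CPM in Perthes rabbits and 120907 to 157927 CPM in controls. The part of fibroblast content in the levels of *C1R*, *C1S* and *C3* was not tested.

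**Figure D4:**
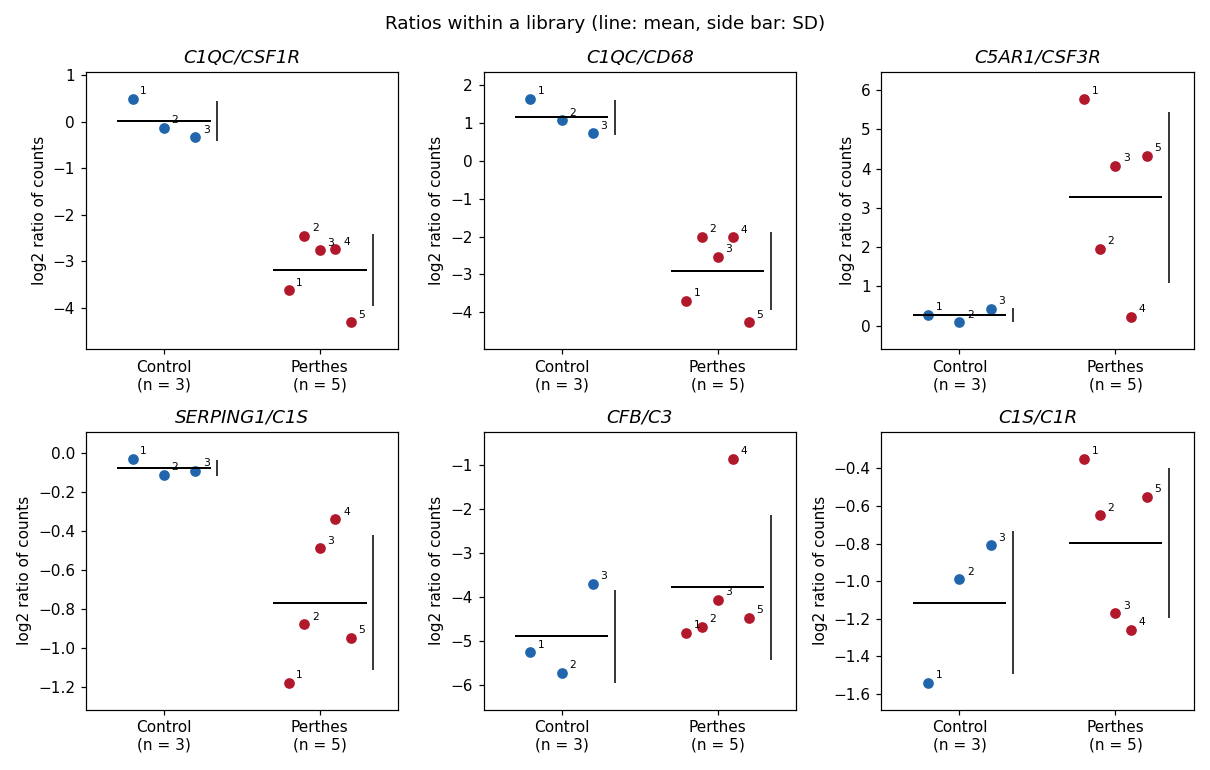
Log2 ratios of counts within a library for 6 pairs of genes, with 1 numbered point per rabbit, a line at the group mean and a bar at its side for the SD (3 controls, 5 Perthes rabbits). The C1q row falls against *CSF1R* and *CD68* in every Perthes rabbit, *SERPING1* to *C1S* is lower in all 5, and Perthes rabbit 4 stands apart for *CFB* to *C3* and lies with the controls for *C5AR1* to *CSF3R*.

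The rest of the pathway was read from a list of 57 other complement genes. Of these, 33 have a row of their symbol and 26 passed the low-count filter. The 7 removed by it, *MBL2*, *COLEC10*, *C5*, *C6*, *CD46*, *CPN1* and *CPN2*, did not exceed 0.405 CPM in any library. Of the 26 tested, 5 were called higher and 5 lower, where 6.21% and 8.87% of all genes were. Their median log2FC was 0.36, beside 0.02 over all genes. DESeq2 called 8 higher. Leaving out control rabbit 2 removed all 10 calls, leaving out control rabbit 1 left 1, and leaving out Perthes rabbit 5 removed the 5 lower ones.

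Neither gene of the classical convertase with a row passed the test. *C4A* (100356976), whose product is cleaved by C1s, was at 110.2, 179, 143, 40.4 and 47.1 CPM in Perthes rabbits and 24.4, 39.7 and 30.0 CPM in controls. The groups were apart, with rabbit 4 only just above the highest control, and the log2FC of 1.73 (SE 0.51) missed the threshold at an adjusted p of 0.0517. The gene was called by DESeq2 (adjusted p = 0.00284), and by edgeR with DESeq2's size factors (0.0489), with at least 10 counts in every library (0.0497) or without Perthes rabbit 4 (0.0218). *C2*, its partner in the classical convertase, had 0.22 (SE 0.45, adjusted p = 0.768). *CFP* (100340696), which encodes properdin, the stabiliser of the alternative convertase, fell. Its level was 11.9, 32.1, 20.6, 11.2 and 15.9 CPM in Perthes rabbits and 108, 57.2 and 42.4 CPM in controls, a log2FC of -1.92 (SE 0.40, adjusted p = 0.0176). Most neutrophil markers were also lower in the Perthes group. Of these, *S100A8* was at 4.36, 253, 77.0, 301 and 32.5 CPM in Perthes rabbits 1 to 5 and 3222, 1191 and 1037 CPM in controls. The part of the neutrophil markers in the fall of *CFP* was not tested. The alternative pathway genes *CFB* and *CFP* thus had opposite signs, with only the fall of *CFP* called.

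Regulators also went in both directions. Group values for the genes below are means ± SD over 5 Perthes rabbits and 3 controls. On the cell surface, *CD55*, which speeds the decay of convertases, fell, with 55.7 ± 10.4 CPM in Perthes rabbits and 103 ± 11.8 CPM in controls, a log2FC of -0.89 (SE 0.18, adjusted p = 0.0170). *CD59*, which blocks the membrane attack complex, fell, with 7.07 ± 2.18 CPM in Perthes rabbits and 15.7 ± 1.26 CPM in controls, with a log2FC of -1.15 (SE 0.25, adjusted p = 0.0209). The groups were apart for both. *CD46*, which helps cleave C3b and C4b, was among the genes too low to test. Among fluid regulators, *VTN*, encoding vitronectin, rose, with 7.55 ± 2.63 CPM in Perthes rabbits and 1.18 ± 0.268 CPM in controls, the largest rise in the list at 2.67 on the log2 scale (SE 0.35, adjusted p = 0.0118). *CLU*, encoding clusterin, was at 472 ± 189 and 132 ± 112 CPM and missed the threshold (log2FC 1.83, adjusted p = 0.0648). It was called by DESeq2 (adjusted p = 0.00493) and, without control rabbit 3, by edgeR (log2FC 2.77, adjusted p = 0.0253). *CPB2*, encoding a carboxypeptidase that inactivates C3a and C5a, fell from 2.22, 1.23 and 0.565 CPM in the controls to 0.0338 to 0.327 CPM in Perthes rabbits (log2FC -3.25, adjusted p = 0.0204), at low counts. The log2FC was -3.84 without Perthes rabbit 4 (adjusted p = 0.0137), and the call was lost without control rabbit 1 (-2.68, adjusted p = 0.0918).

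Receptors for C3 fragments differed among themselves. *VSIG4*, a macrophage receptor for C3b, rose, with 172, 66.1, 58.8, 34.4 and 137 CPM in Perthes rabbits and 22.9, 12.6 and 15.7 CPM in controls. All Perthes rabbits were above the controls, rabbit 4 by the least, and the log2FC was 2.46 (SE 0.55, adjusted p = 0.0211). *ITGAX*, the alpha chain of complement receptor 4, rose by 2.64 on the log2 scale (SE 0.68, adjusted p = 0.0331), although rabbit 4, at 12.2 CPM, lay below control rabbit 2 at 15.8 CPM. Of 6 osteoclast markers, 2 were called higher (*CTSK* and *DCSTAMP*) and none lower, with sums of 1529 to 4369 CPM in Perthes rabbits and 717 to 1259 CPM in controls. The part of these and of the macrophage markers, whose sums overlapped, in both rises was not tested. *CR1*, the receptor for C3b and C4b, fell, with 1.97 ± 0.688 CPM in Perthes rabbits and 7.45 ± 5.86 CPM in controls, a log2FC of -1.92 (SE 0.48, adjusted p = 0.0306). Control rabbit 1 held 14.2 CPM against 4.65 and 3.53 CPM in the other controls, and without it the log2FC was -1.05 (adjusted p = 0.148). *ITGB2*, the beta chain shared by complement receptors 3 and 4, and *C5AR2*, the second C5a receptor, had log2FCs of -0.37 and -0.16 (adjusted p = 0.624 and 0.566). The alpha chain of complement receptor 3 is listed only under LOC100351865, a gene ID that RefSeq gives to *ITGAM*, and had -0.78 (adjusted p = 0.289). Of the proteins known to bind C1q, *LRP1*, an endocytic receptor, rose, with 3571 ± 432 CPM in Perthes rabbits and 1549 ± 317 CPM in controls, or by 1.20 on the log2 scale (adjusted p = 0.0165). *PTX3*, a pentraxin that binds C1q, rose, with 68.1 ± 19.5 CPM in Perthes rabbits and 24.2 ± 8.45 CPM in controls, or by 1.49 (adjusted p = 0.0192). *CD93*, also listed as C1q-binding, had a log2FC of 0.12 with overlapping groups (adjusted p = 0.746 in edgeR).

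**Figure D5:**
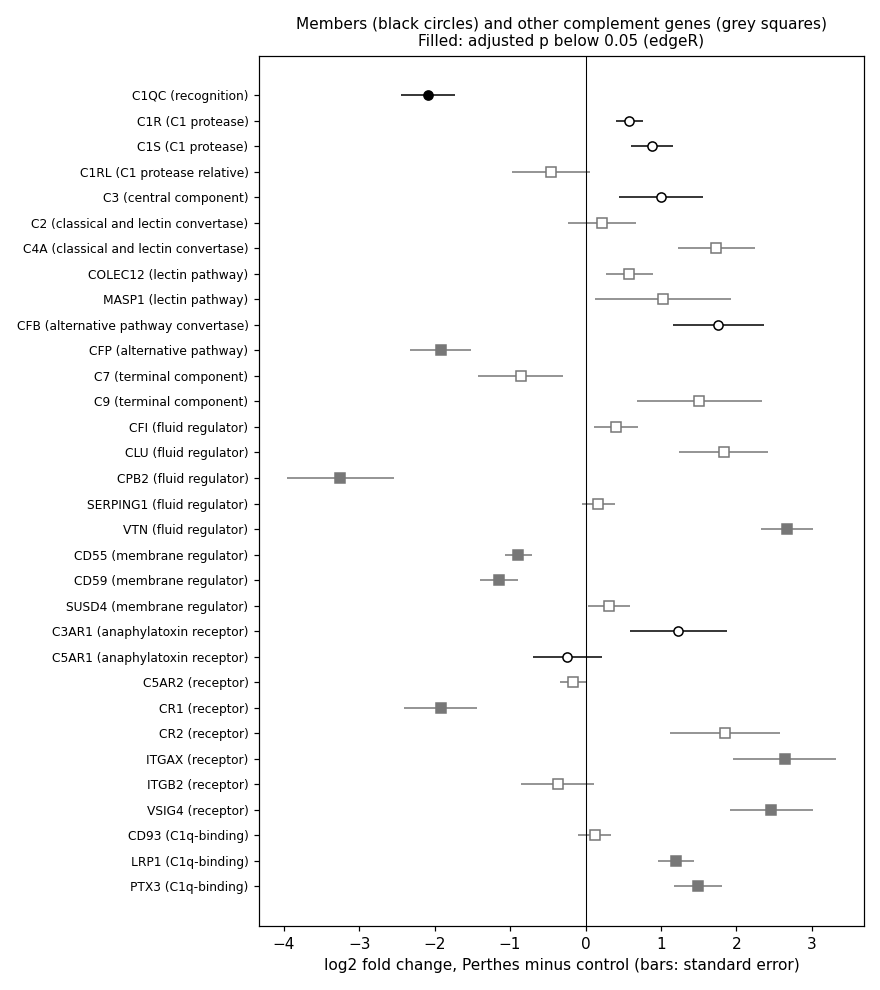
Log2 fold changes (Perthes minus control) with SEs for the 7 members (circles) and the other tested complement genes reported here (squares), ordered by role, with filled symbols for an adjusted p below 0.05 in edgeR. Filled symbols are the C1q row, *CFP*, *CPB2*, *CD55*, *CD59* and *CR1* on the lower side and *VTN*, *ITGAX*, *VSIG4*, *LRP1* and *PTX3* on the higher side.

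Also short of the threshold were 7 tested genes of the list, *C7*, *C9*, *CFI*, *CR2*, *CD93* (given above), *SUSD4* and *C1RL*. Of these, *CR2* had a log2FC of 1.85 (SE 0.73, adjusted p = 0.118 in edgeR) with overlapping groups, and was called by DESeq2 (adjusted p = 0.0276). The genes listed for the lectin pathway alone were largely out of reach. Only *COLEC12* and *MASP1* of them were tested, at 0.58 and 1.03 (adjusted p = 0.233 and 0.461). *C4A* and *C2*, given above, serve the lectin pathway as well as the classical one. No row bears the name of a ficolin, the family of lectins that binds sugars on microbes. A search of the table's descriptions, made after values had been seen, found LOC103347076, described as ficolin-2. It had 0.507, 24.9, 6.39, 17.6 and 2.25 CPM in Perthes rabbits and 230.4, 110.4 and 61.8 CPM in controls. All Perthes rabbits were below the controls, and rabbit 1 held 15 counts. The log2FC was -3.70 (SE 0.98, adjusted p = 0.0357). It was -3.06 without control rabbit 1 (adjusted p = 0.130), -4.33 without Perthes rabbit 2 (adjusted p = 0.0223), and the call was held in 4 of 8 fits with a rabbit left out.

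Genes whose pattern was most like that of a member over the 8 libraries were ranked by Pearson's r of log2 CPM, as a description only, since a shared group difference alone gives a high r among 15305 genes. For the C1q row they were *TMEM229B* (r = 0.989), *SLC24A1* (0.983), *FAM124A* (0.983), *ACKR1* (0.983) and *DGKE* (0.977). With the group means removed their r was 0.941, 0.913, 0.911, 0.915 and 0.885. *ACKR1*, the atypical chemokine receptor of red cells and venules, had a log2FC of -2.54, and all 5 were called lower. The summed erythroid markers were also lower, at 28.5 to 1852 CPM in Perthes rabbits and 3909 to 4645 CPM in controls, and their part in the level of the C1q row was not tested. Among the nearest to *C5AR1* were *SELPLG* (r = 0.985), which encodes the leukocyte ligand of P-selectin, and *ACTN1* (0.983). The nearest to *C3* were *ZDHHC14* (0.958), *RNASE6* (0.955) and *P2RY11* (0.954), and to *C3AR1* they were *MAGOHB* (0.988), *HPS3* (0.969) and *TRNAU1AP* (0.964). For *C1R* they were *RAB15* (0.947), *ADCY3* (0.940) and *MYZAP* (0.937), for *C1S* *GSPT2* (0.991), *VWA3A* (0.978) and *EIF2AK4* (0.978), and for *CFB* *CCDC191* (0.967) was among the nearest.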

How the data were processed

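Femoral head RNA of 5 Perthes and 3 control rabbits was analysed, and 8 small RNA libraries were not used. Of the controls, the one coded 3 is titled replicate 2, and its code was followed. For these total RNA libraries the authors mapped 150 bp read pairs to a rabbit assembly with HISAT2 2.0.4 and obtained gene values with RSEM 1.1.17 together with HTSeq 1.99.2, versions that the submitters' processing notes also list. The authors deposited expected counts per gene, without normalization. Another 8 columns of per-sample values were identical to those used and were left out. Members had whole counts in every library (tolerance 1e-09), and other genes were rounded.

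Counts were scaled by TMM, filtered with filterByExpr and tested in R 4.3.3 by the quasi-likelihood F-test of edgeR 4.0.16. P-values were adjusted by Benjamini-Hochberg over 15305 genes. The fits were tested on simulated counts. A standard error is the log2 fold change over the square root of F. log2 CPM used a prior count of 2, as did the ratios within libraries, which were compared by exact two-sided permutation tests over 56 divisions of the rabbits (scipy 1.17.1). Of 19 planned ratios, 7 involve *C1QA* or *C1QB* and were not computed. Alternatives were DESeq2 1.42.0, other scaling and filters, a block on the replicate number and fits without each rabbit. Named genes were the members, the called and most changed genes of the pathway list, and the 3 to 5 genes most correlated with each member. A few genes that this rule names are not reported here. The members and lists were chosen with earlier results of these data known. A gene length per transcript was not used, so levels were not compared between genes. No protein or promoter sequence was used here.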

Additional observations from a re-analysis of the deposited data

Results flagged for a closer look

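The log2 ratio of *CFB* to *C3* counts in Perthes rabbit 4 was -0.86, while the other 4 Perthes rabbits lay between -4.81 and -4.07 and the controls between -5.72 and -3.70. It was far from the other values of its group by Dixon's test at the 95% level. A total of 19 groups of 5 values were examined in this way and about 1 in 20 is marked by chance. In that rabbit *CFB* was at 59.0 CPM, the highest of all, and *C3* at 107 CPM, the lowest.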

How the results depend on the processing

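With the replicate number as a block, edgeR called 0 genes of the whole table in either direction (1503 higher and 1648 lower at an unadjusted p below 0.05), so 0 members and 0 other complement genes in either direction. Perthes rabbits 4 and 5 share their number with no control. The group difference in that fit therefore rested on rabbits 1 to 3 of each group. The C1q row then had -1.77 and *C5AR1* turned to 0.09. The numbers are not known to pair rabbits: after removing group means, rabbits that share a number correlated at -0.317, 0.161 and -0.238. DESeq2 called 1720 genes higher, 3 members (*C1R* 0.58, *C1S* 0.87 and *CFB* 1.78) and 8 other complement genes higher. With 1 rabbit left out, 0 to 1267 genes were called higher and 0 to 1628 lower, with 0 of both without control rabbit 2 (1624 and 2098 at an unadjusted p below 0.05) and 73 and 184 without control rabbit 1. Members called ranged from 0 to 1 in each direction, and other complement genes from 0 to 6 higher and from 0 to 5 lower. The log2 fold change of the C1q row ranged from -2.29 to -1.85, of *C3AR1* from 0.78 to 1.51 and of *C5AR1* from -0.57 to 0.53. Signs also turned for *C2* without Perthes rabbit 1 (range -0.04 to 0.45) and, without control rabbit 1, for *SERPING1* (-0.04 to 0.33), *ITGB2* (-0.70 to 0.38), *CD93* (-0.03 to 0.27) and *C1RL* (-0.81 to 0.44). With library totals in place of TMM factors, 71.5% of called genes were lower, against 58.8%. The causes of these changes were not tested. Scaling by DESeq2's size factors, other filters and unrounded counts, the last chosen after seeing the data, moved no call of a member.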

Other observations

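Complement and coagulation share inhibitors and proteases, and the table's own KEGG annotation joins them in a list of 66 genes, looked at after the values were known. Of its 48 tested genes, 6 were called higher and 8 lower, where 6.21% and 8.87% of all tested genes were. The list overlaps those above, and its calls include the C1q row, *VTN*, *VSIG4*, *ITGAX*, *CD55*, *CD59*, *CR1* and *CPB2*, already given. The median log2 fold change of the 48 genes was 0.31, beside 0.02 over all genes. The plasminogen activators rose. *PLAU*, encoding urokinase, went from 23.2 ± 3.99 CPM (SD, n = 3) in controls to 141 ± 57.0 CPM (SD, n = 5) in Perthes rabbits (log2 fold change 2.60, adjusted p = 0.0118). *PLAT*, encoding tissue plasminogen activator, went from 9.94 ± 3.45 to 30.7 ± 5.79 CPM (1.63, adjusted p = 0.0128). The thrombin receptor gene *F2R* rose by 1.29 on the log2 scale (adjusted p = 0.0136). The coagulation cofactor genes fell, *F5* with a log2 fold change of -2.36 (adjusted p = 0.0118) and *F8* with -1.89 (adjusted p = 0.0163). For each of these 5 genes, taken from those called, the groups did not overlap. Among all tested genes, 11.2% had groups apart on the higher side and 13.9% on the lower side. Without control rabbit 1 the log2 fold change of *F5* was -1.72, and without control rabbit 2 no gene of the table was called.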
